A study of Mus musculus with 20 samples.

Results

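The genes described here carry cholesterol through the cell and store it: Soat1 and Soat2, which make cholesteryl esters, Npc1, Npc2 and Lipa of the lysosome, the sterol carriers Stard4, Stard5 and Osbpl3, the oxysterol-making enzyme gene Ch25h and the lipoprotein receptor gene Scarb1. They were found by their names on Agilent whole-mouse arrays (Lipa under its older name Lip1), which gave 10 genes on 18 probes, of 27573 genes on 41174 probes. All 10 passed the filter on dim signals, as did 17552 genes in all. The probe named Acat2 on the array belongs to acetyl-CoA acetyltransferase, so Soat2, whose enzyme is often called ACAT2, was taken only from its own probe.

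Liver RNA came from 20 male mice, 5 in each group, all aged 28 weeks and of a mixed Sv129/C57Bl6J background. The groups were LXR alpha/beta double knockout mice on Western diet, the same knockout on normal diet, wild-type mice on Western diet and wild-type mice on normal diet, each fed for 7 weeks (the Western diet is described as a cocoa butter diet). The labels name no cell type to which the deletion was restricted, and the tissue was a fragment of the large lobe, so every liver cell type contributed RNA. The liver X receptors (LXR) are nuclear receptors that bind oxysterols, and the deletion removes both of them.

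Cholesterol taken up with lipoproteins is freed from its esters in the lysosome by the acid lipase that Lipa encodes. The NPC2 protein then hands it to NPC1 in the lysosomal membrane, and NPC1 lets it leave. Carriers of the START and oxysterol-binding protein families move it between membranes, and sterol O-acyltransferases at the endoplasmic reticulum turn the surplus into esters for lipid droplets or, in hepatocytes through SOAT2, for secreted lipoproteins. In liver SOAT1 is known mainly from macrophages and other nonparenchymal cells, and SOAT2 from hepatocytes. 25-hydroxycholesterol, made by CH25H, is a signal of activated macrophages.

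Values below are log2 of the processed signal relative to the 75th percentile of the array, called levels, and log2 differences ± SE from 1 limma fit with 5 mice per group. "Rose", "fell" and "changed" mean an adjusted p under 0.05 after Benjamini-Hochberg adjustment over all genes of a comparison. A gene is represented by its brightest probe, and levels are compared between groups for 1 probe at a time, never between probes. The exception is the marker sums below, which add unlogged levels of several genes, so that the brightest markers weigh most.

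The 75th percentile used for scaling ran from 339.7 to 435.1 intensity units in knockout mice on Western diet, 223.5 to 323.3 in knockout mice on normal diet, 261.1 to 330.8 in wild-type mice on Western diet and 170.3 to 280 in wild-type mice on normal diet. It thus moved with the groups, and its part in the results was tested only through the other scalings. On the arrays 53.6% to 67.11% of probes lay well above background. Replicates correlated at 0.9504 to 0.9902 across genes. Nr1h3 (LXR alpha) averaged -4.71 in knockout and 4.29 in wild-type mice on Western diet, and Nr1h2 (LXR beta) averaged -4.73 in knockout and 0.69 in wild-type mice. Of the hepatocyte markers, all 8 on the array lay well above background in every group. The arrays fell into 6 scan passes, arrays that share a scan time in the file headers, and differences within a pass are given for passes that held both groups.

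On Western diet the genes split by genotype. Knockout livers had 53.8-fold the Osbpl3 signal of wild-type livers, 21.1-fold the Ch25h signal (with only 2 of 5 wild-type arrays above background), 19.6-fold the Soat1 signal and 2.75-fold the Npc2 signal. Soat2 was 2.06-fold lower in knockout livers, Stard5 1.65-fold lower and Stard4 1.52-fold lower. Of the 10 genes, 5 rose (Soat1, Npc1, Npc2, Ch25h and Osbpl3) and 4 fell (Soat2, Stard4, Stard5 and Scarb1), while Lipa did not pass the test. Among all genes 25% rose and 32.7% fell in this comparison, 57.7% in all, so the count of 9 of 10 stands against a background in which most genes changed. The median difference was 0.37 over the 10 genes and -0.16 over all genes. For 6 of the 10 genes the knockout and wild-type mice did not overlap, as for 42.3% of all genes. With normexp background correction in place of the processed signal 6 genes passed, where 23.4% of all genes did. Stard4 (-0.39, adjusted p = 0.368), Stard5 (-0.44, adjusted p = 0.263) and Scarb1 (-0.15, adjusted p = 0.726) then did not pass.

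**Figure D1:**
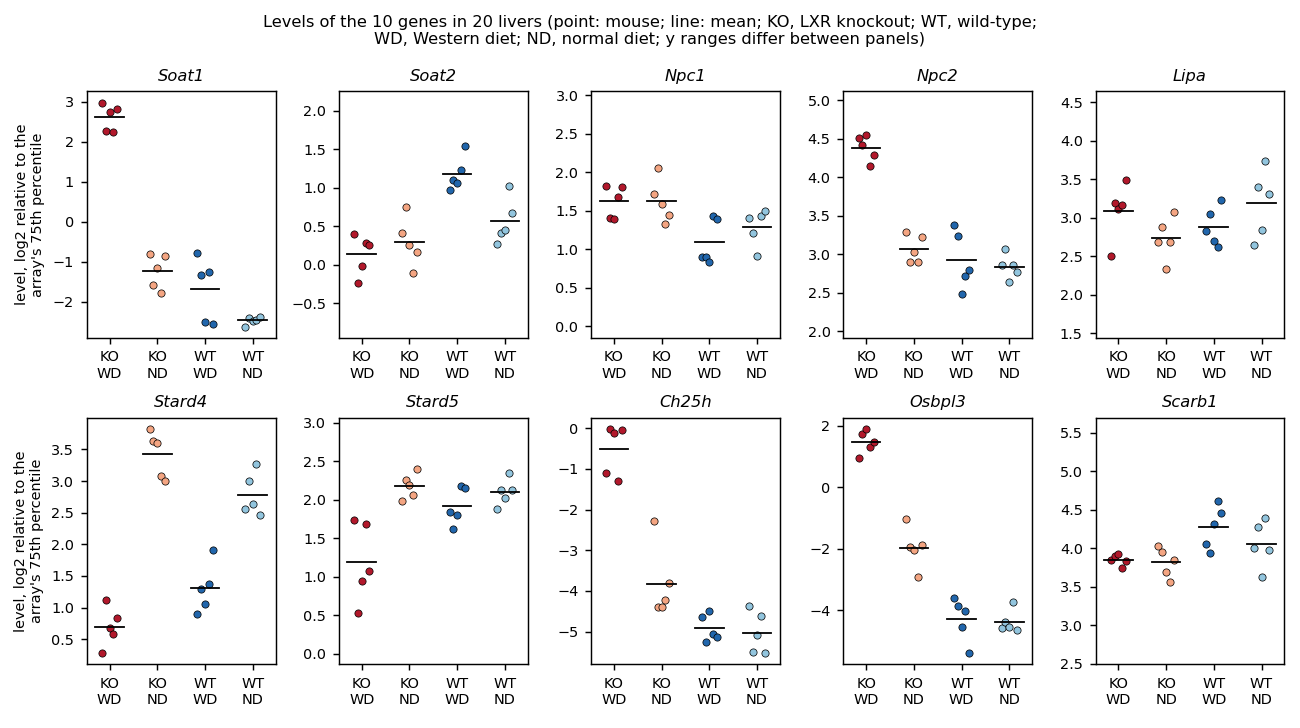
Level of each gene (log2 relative to the array's 75th percentile) in the 20 mice, by group: LXR knockout on Western diet, LXR knockout on normal diet, wild-type on Western diet and wild-type on normal diet. Points are mice and lines are group means. For Soat1, Npc2, Ch25h and Osbpl3 the 5 knockout mice on Western diet lie above all 15 other mice.

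Soat1 encodes the acyltransferase that esterifies cholesterol in macrophages and steroid-making cells. In knockout mice 1 to 5 on Western diet its level was 2.98, 2.27, 2.75, 2.25 and 2.81, and in knockout mice on normal diet it was -0.81, -1.58, -1.16, -1.78 and -0.84. In wild-type mice it was -0.79, -1.32, -2.49, -1.24 and -2.56 on Western diet and -2.62, -2.41, -2.48, -2.44 and -2.37 on normal diet. Every knockout mouse on Western diet was thus above every other mouse by more than 3 log2 units. Knockout mice on normal diet and wild-type mice on Western diet overlapped, and that pair was not tested. The 5 wild-type mice on normal diet lay within a narrow band below all the knockout mice.

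The genotype difference in Soat1 on Western diet was 4.29 ± 0.29 (19.6-fold, 95% interval 12.8 to 30.1, adjusted p = 1.58e-09), and within 4 scan passes it ran between 3.76 and 4.75. On normal diet Soat1 also rose in knockout livers, by 1.23 ± 0.29 (2.35-fold, adjusted p = 0.00614). The diet difference in Soat1 was 3.85 ± 0.29 in knockout livers (adjusted p = 1.04e-08) and 0.79 ± 0.29 in wild-type livers (adjusted p = 0.131). Without wild-type mouse 5 on Western diet that wild-type difference was 1.01 (adjusted p = 0.0428). The test of the difference between these diet differences gave 3.06 ± 0.42 (adjusted p = 3.89e-05). The other Soat1 probes had the same direction for genotype on both diets and for diet in knockout livers, but for diet in wild-type livers they differed by 0.41 and -0.20, and the third was below background on all 10 of those arrays. On normal diet the second probe was above background on only 2 of 5 wild-type arrays. The third was so on 2 of 5 knockout arrays and no wild-type array, so the shared direction there rests partly on dim signals. For genotype on Western diet the second probe differed by 3.81 ± 0.29, and the third, below background on all 5 wild-type arrays, was at least 36.6-fold higher in knockout livers. "At least" sets the mean of the brighter group against the lowest signal well above background on each array of the dim group.

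Osbpl3 encodes an oxysterol-binding protein relative that works at contacts of the endoplasmic reticulum with the plasma membrane. Its level in knockout mice 1 to 5 was 0.94, 1.75, 1.89, 1.31 and 1.48 on Western diet and -1.04, -1.93, -2.04, -2.91 and -1.86 on normal diet. Wild-type mice had -3.58, -3.84, -4.55, -4.00 and -5.39 on Western diet and -4.57, -4.39, -4.53, -3.72 and -4.64 on normal diet. Osbpl3 thus stepped down by group, with no overlap between the genotypes on either diet, while the wild-type groups overlapped. It was well above background on 4 of 5 wild-type arrays on Western diet and 3 of 5 on normal diet.

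The genotype difference in Osbpl3 was 5.75 ± 0.33 on Western diet (53.8-fold, 95% interval 33.1 to 87.5, adjusted p = 2.03e-10) and 2.42 ± 0.33 on normal diet (5.33-fold, adjusted p = 5.37e-05). With dim wild-type values raised to the lowest measurable signal of their array, these became 5.71 and 2.39. Western diet raised Osbpl3 in knockout livers by 3.43 ± 0.33 (adjusted p = 1.74e-07), against 0.10 ± 0.33 in wild-type livers (adjusted p = 0.903), and the difference between the 2 was 3.33 ± 0.47 (adjusted p = 5.65e-05). The dimmer second probe, below background on every wild-type array on Western diet, was at least 5.44-fold higher in knockout livers on that diet. On normal diet this second probe differed by 0.47 (adjusted p = 0.582) and was above background on only 2 knockout arrays and 1 wild-type array.

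Ch25h encodes the hydroxylase that makes 25-hydroxycholesterol, which restrains sterol synthesis and activates LXR. Its level in knockout mice 1 to 5 was -1.10, -0.02, -0.12, -1.29 and -0.04 on Western diet and -2.28, -4.39, -4.40, -4.23 and -3.80 on normal diet. In wild-type mice it was -4.65, -5.25, -4.48, -5.05 and -5.12 on Western diet and -4.38, -5.51, -5.09, -4.63 and -5.53 on normal diet. Only 2 wild-type arrays on Western diet and 1 on normal diet lay well above background. All knockout mice on Western diet were above every other mouse, and mouse 1 of the knockout group on normal diet stood apart from the other 4 of its group.

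The Ch25h difference between genotypes was 4.40 ± 0.38 on Western diet (21.1-fold, adjusted p = 2.11e-08), and 4.37 with dim values raised to the measurable floor. On normal diet it was 1.21 ± 0.38 (adjusted p = 0.0294), and 0.94 with dim values raised to the floor. That call was lost under several alternatives. With all mice kept the difference was 1.17 with median scaling (adjusted p = 0.065) and 1.23 with quantile normalization (adjusted p = 0.061). It was 0.39 with normexp (adjusted p = 0.883) and 1.21 with only the 2 groups in the fit (adjusted p = 0.0737). The call was also lost without knockout mouse 5 or wild-type mouse 2 or 3 on normal diet. Without knockout mouse 1 on normal diet the difference was 0.83 (adjusted p = 0.0785), and without wild-type mouse 5 on normal diet 1.08 (adjusted p = 0.0749). With the scan pass as a fixed block it was 1.04 (adjusted p = 0.0822). Western diet raised Ch25h in knockout livers by 3.30 ± 0.38 (adjusted p = 9.92e-07), and the difference from the wild-type diet effect was 3.19 ± 0.53 (adjusted p = 0.000253). With normexp these became 1.06 (adjusted p = 0.067) and 0.98 (adjusted p = 0.44), over 1.5 times smaller and no longer past the threshold.

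Npc2 encodes the soluble lysosomal protein that carries freed cholesterol. In knockout mice 1 to 5 it was at 4.51, 4.41, 4.54, 4.14 and 4.29 on Western diet and at 3.29, 2.90, 3.03, 2.90 and 3.23 on normal diet. In wild-type mice it was at 3.38, 3.23, 2.48, 2.71 and 2.79 on Western diet and at 2.86, 3.07, 2.63, 2.86 and 2.76 on normal diet. Npc2 was high in the knockout mice on Western diet, and the other 3 groups overlapped. It rose by 1.46 ± 0.15 with genotype on Western diet (2.75-fold, adjusted p = 2.17e-07), between 1.13 and 1.66 within scan passes, and by 1.31 ± 0.15 with Western diet in knockout livers (adjusted p = 1.24e-06). The genotype difference on normal diet was 0.23 ± 0.15 (adjusted p = 0.308) and the diet difference in wild-type livers 0.08 ± 0.15 (adjusted p = 0.804). The diet differences differed by 1.23 ± 0.22 (adjusted p = 0.000382).

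The macrophage marker sum, like these 4 genes, was highest in the knockout mice on Western diet. All 10 macrophage markers rose with genotype on Western diet, and their summed level ran from 284 to 378 in knockout mice on Western diet, 24.5 to 129 in knockout mice on normal diet, 30.7 to 104 in wild-type mice on Western diet and 22.7 to 52 in wild-type mice on normal diet (sums of unlogged levels). All 8 markers of lipid-laden macrophages rose too, with sums between 422 and 531 in knockout mice and between 39.8 and 158 in wild-type mice on Western diet. Spp1 (mean 5.52 in wild-type mice on Western diet) stood in this list and in that of cholangiocytes. The counts and sums of these 2 lists are therefore not independent. The cholangiocyte sums were 33.5 to 146 in wild-type mice on Western diet. In wild-type mice Itgam and Mmp12 lay below background on every array on Western diet, and Gpnmb and Mmp12 on every array on normal diet. Markers of resident Kupffer cells went the other way: 6 of 7 fell with genotype on Western diet, with sums between 1.42 and 3.79 in knockout mice and between 24.8 and 105 in wild-type mice. Neutrophil (4 of 5), stellate cell and fibroblast (5 of 7) and cholangiocyte markers (5 of 5) also rose in that comparison. In whole liver, fewer cells of a type and less RNA per cell cannot be told apart, and the part of these cell types in the results was not tested.

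In some groups and genes the mice with more macrophage signal also had higher levels, and in others not. The wild-type mice on Western diet with the most macrophage marker signal, numbers 1, 2 and 4 (log2 sums of 6.71, 6.18 and 5.91), had the highest Soat1 levels of their group, and mice 3 and 5 (5.08 and 4.94) the lowest. Ch25h, however, was highest in mouse 3 of that group. Among knockout mice on normal diet, mice 1 and 5 had the highest marker sums (7.01 and 6.52) and the highest levels of Soat1, Npc2, Ch25h and Osbpl3. Among knockout mice on Western diet Soat1 was highest in mouse 1, while the marker sum was highest in mouse 3 (8.56 against 8.36 in mouse 1). The marker sums of knockout mice on normal diet and wild-type mice on Western diet overlapped. Between those groups the levels of Soat1 and Npc2 overlapped too, while those of Osbpl3 and Ch25h did not. For Ch25h only 2 of these wild-type arrays lay well above background. These are descriptions of 5 mice each, with no test.

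**Figure D2:**
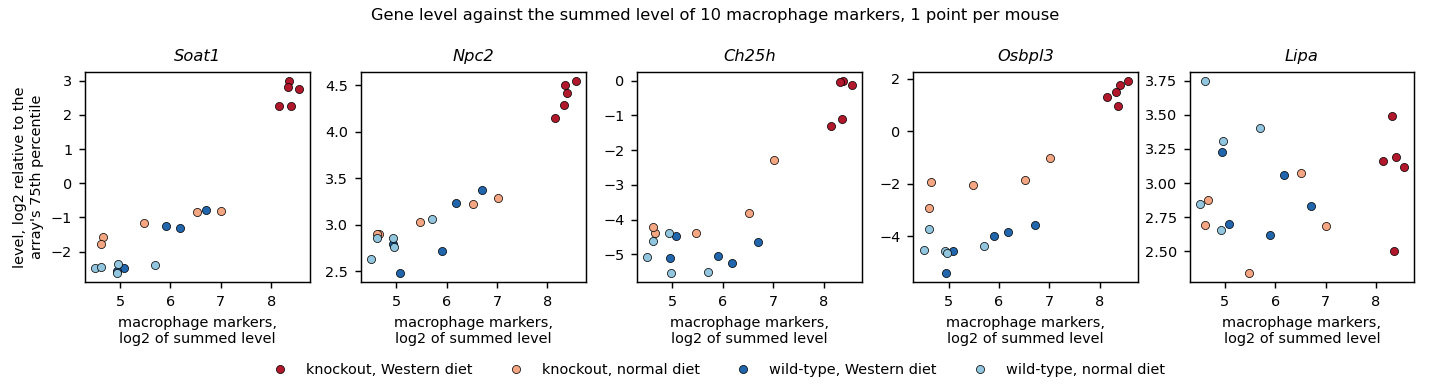
Level of 5 genes (y axis, log2 relative to the array's 75th percentile) against log2 of the summed level of 10 macrophage markers (x axis), 1 point per mouse. Knockout mice on Western diet lie at marker sums above 8 and are high for Soat1, Npc2, Ch25h and Osbpl3, while Lipa covers a like range of levels in all 4 groups.

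The promoters of these 4 genes are shown because the genes rose together, as the 250 bases before the start site in RefSeq on GRCm38.p6. Soat1 lies on the minus strand at chr1:156474329-156474578, Npc2 on the minus strand at chr12:84773113-84773362, Ch25h on the minus strand at chr19:34475149-34475398 and Osbpl3 on the minus strand at chr6:50456171-50456420. Capitals mark every match to the 8 motifs searched, on either strand.
Soat1: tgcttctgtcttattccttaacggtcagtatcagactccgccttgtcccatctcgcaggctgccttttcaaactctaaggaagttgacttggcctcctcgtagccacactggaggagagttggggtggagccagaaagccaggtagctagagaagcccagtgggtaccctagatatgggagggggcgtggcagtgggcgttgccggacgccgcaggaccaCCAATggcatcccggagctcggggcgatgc
Npc2: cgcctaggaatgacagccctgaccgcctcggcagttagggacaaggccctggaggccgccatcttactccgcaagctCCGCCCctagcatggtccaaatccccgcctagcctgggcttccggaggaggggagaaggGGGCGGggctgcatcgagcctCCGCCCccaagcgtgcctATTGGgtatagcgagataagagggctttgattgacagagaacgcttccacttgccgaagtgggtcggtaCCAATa
Ch25h: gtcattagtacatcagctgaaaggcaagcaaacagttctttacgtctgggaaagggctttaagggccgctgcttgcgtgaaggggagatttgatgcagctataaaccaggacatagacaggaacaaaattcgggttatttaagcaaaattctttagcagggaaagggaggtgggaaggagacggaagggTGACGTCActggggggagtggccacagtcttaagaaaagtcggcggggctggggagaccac
Osbpl3: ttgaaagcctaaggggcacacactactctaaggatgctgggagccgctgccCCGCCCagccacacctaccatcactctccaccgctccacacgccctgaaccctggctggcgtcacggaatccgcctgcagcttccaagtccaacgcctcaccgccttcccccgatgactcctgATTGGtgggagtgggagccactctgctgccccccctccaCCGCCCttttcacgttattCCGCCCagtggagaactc

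The motifs were the LXR direct repeat (2 of its half-sites in 1 direction with 4 bases between them), the sterol regulatory element TCACNCCAC, the lysosomal gene E-box TCACGTG, the PU.1 site GAGGAAG, the AP-1 site TGANTCA and the GC box GGGCGG. The CCAAT box CCAAT and the cAMP response element TGACGTCA were added after the sequences had been read. Soat1 held 1 CCAAT box, Npc2 held 3 GC boxes and 2 CCAAT boxes, and Osbpl3 held 3 GC boxes and 1 CCAAT box. Ch25h held a cAMP response element 61 bases before the start and no other match. No motif overlapped another there, and none of the 4 windows held the letters of the LXR direct repeat, the sterol regulatory element, the E-box, the PU.1 site or the AP-1 site. Of all 32851 promoter windows of this length, 0.067% held the LXR repeat, 1.05% the sterol regulatory element, 3.13% the E-box, 10.6% the PU.1 site, 6.75% the AP-1 site, 32.7% the GC box, 33.8% the CCAAT box and 1.55% the cAMP response element. Windows were searched for 6 of the 10 genes. The other 2 searched were Stard5, with 4 GC boxes and 2 CCAAT boxes, and Lipa, with a PU.1 site and a CCAAT box. Soat2, Npc1, Stard4 and Scarb1 were not searched, so nothing is said of motifs in their windows. A match says only that these letters occur in the window.

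Lipa is the chromosomal neighbour of Ch25h and, on its brightest probe, did not follow it. Both lie on the minus strand of chromosome 19 with start sites 52326 bases apart on GRCm38.p6, and their array probes are 19239 bases apart on mm8, the build of the array files. Lipa encodes the lysosomal acid lipase. Its level ran from 2.50 to 3.49 in knockout mice on Western diet, 2.34 to 3.08 in knockout mice on normal diet, 2.62 to 3.23 in wild-type mice on Western diet and 2.65 to 3.74 in wild-type mice on normal diet. All 4 groups overlapped. The genotype difference in Lipa was 0.21 ± 0.21 on Western diet (95% interval -0.23 to 0.65, adjusted p = 0.419) and -0.46 ± 0.21 on normal diet (adjusted p = 0.14). With Western diet Lipa differed by 0.36 ± 0.21 in knockout livers (adjusted p = 0.167) and by -0.30 ± 0.21 in wild-type livers (adjusted p = 0.457), with an interaction of 0.66 ± 0.30 (adjusted p = 0.109). The knockout diet difference passed with quantile normalization (0.51, adjusted p = 0.046) and without knockout mouse 1 on Western diet (0.51, adjusted p = 0.0468). The interaction passed with the replicate block (adjusted p = 0.0451), with the mean of probes (1.17, adjusted p = 0.0439), without knockout mouse 1 on Western diet (0.81, adjusted p = 0.0382) and without wild-type mouse 1 on normal diet (0.80, adjusted p = 0.0499). A second, dimmer Lipa probe, from a cDNA clone, rose in knockout livers on Western diet by 1.40 ± 0.43 (adjusted p = 0.00893). Both probes were thus higher in knockout livers there, but only the second passed. The mean of the 2 probes rose by 0.80 in that comparison (adjusted p = 0.0248). For the interaction, too, the second probe passed (1.68 ± 0.61, adjusted p = 0.0473) where the brightest did not.

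Npc1, the membrane partner of Npc2, changed less. Its level ran from 1.39 to 1.82 in knockout mice on Western diet, 1.33 to 2.06 in knockout mice on normal diet, 0.84 to 1.43 in wild-type mice on Western diet and 0.92 to 1.50 in wild-type mice on normal diet. The groups overlapped slightly on Western diet, where Npc1 rose by 0.53 ± 0.16 with genotype (1.44-fold, adjusted p = 0.0102). With median scaling of the arrays this was 0.44 (adjusted p = 0.108), and with the mean of both Npc1 probes, 1 of them never above background, 0.06 (adjusted p = 0.718). On normal diet the difference was 0.33 ± 0.16 (adjusted p = 0.168). The diet difference was -0.01 ± 0.16 in knockout livers, with a sign that turned under 4 other ways of scaling or correcting the signals (0.06 to 0.21), and -0.20 ± 0.16 in wild-type livers. A second Npc1 probe was below background on all 20 arrays.

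Soat2, the acyltransferase gene of hepatocytes, went against Soat1 for genotype on Western diet. In knockout mice 1 to 5 its level was 0.40, -0.23, -0.02, 0.28 and 0.25 on Western diet and 0.42, 0.75, 0.25, -0.10 and 0.17 on normal diet. Wild-type mice had 0.97, 1.09, 1.06, 1.24 and 1.54 on Western diet and 0.27, 0.42, 0.44, 1.03 and 0.67 on normal diet. The wild-type mice on Western diet were the highest group and lay above every knockout mouse, while the knockout groups overlapped each other. With Western diet in wild-type livers both Soat2 and Soat1 were higher, Soat1 without passing the test.

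Soat2 fell by 1.04 ± 0.17 with genotype on Western diet (2.06-fold, 95% interval 1.6 to 2.65, adjusted p = 4.96e-05), between -1.11 and -0.57 within scan passes. On normal diet it differed by -0.27 ± 0.17 (adjusted p = 0.306). Western diet raised Soat2 in wild-type livers by 0.61 ± 0.17 (adjusted p = 0.0428) and the difference was -0.16 ± 0.17 in knockout livers (adjusted p = 0.455), and the test between them gave -0.78 ± 0.25 (adjusted p = 0.0242). That last call was lost with median scaling (-0.83, adjusted p = 0.0832) and with normexp (-0.52, adjusted p = 0.333). The wild-type diet call was close to the threshold: leaving out 1 of 12 of the 20 mice ended it, with the scan pass as a block it had adjusted p = 0.0683 and with the replicate block adjusted p = 0.0718, and it was higher in all 4 passes that held both groups (0.21 to 0.86). Hepatocyte markers were lower in knockout livers on Western diet as well, 6 of 8 having fallen, with sums between 537 and 631 in knockout mice and between 695 and 895 in wild-type mice. Their part in the fall of Soat2 was not tested.

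**Figure D3:**
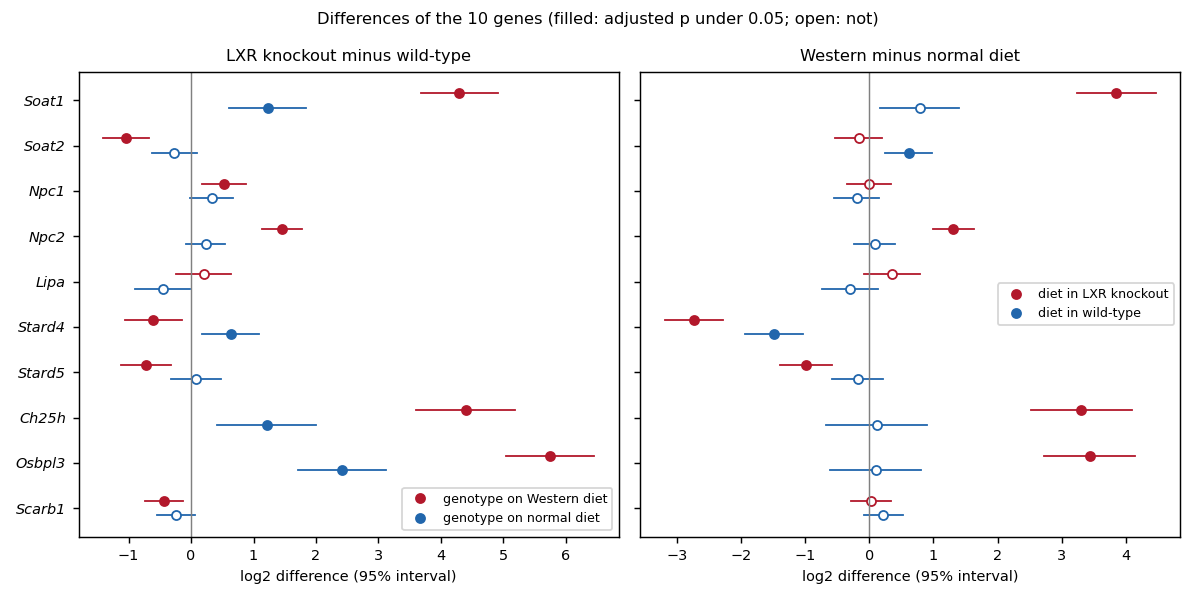
Log2 differences with 95% intervals of the 10 genes, for genotype (knockout minus wild-type, left) on Western and normal diet and for diet (Western minus normal, right) in knockout and wild-type livers. Filled points have an adjusted p under 0.05. Soat1, Npc2, Ch25h and Osbpl3 lie far to the right on Western diet and in knockout livers, Stard4 lies left for diet in both genotypes, and Soat2 lies on opposite sides for genotype on Western diet and diet in wild-type livers.

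Stard4 encodes a soluble START-domain carrier that moves cholesterol to the endoplasmic reticulum, and its transcription is controlled by SREBP2. Its level in knockout mice 1 to 5 was 0.28, 1.11, 0.68, 0.58 and 0.84 on Western diet and 3.82, 3.63, 3.61, 3.07 and 2.996 on normal diet. In wild-type mice it was 0.90, 1.29, 1.05, 1.37 and 1.90 on Western diet and 2.55, 3.01, 2.64, 3.28 and 2.46 on normal diet. Every mouse on Western diet was below every mouse on normal diet, in both genotypes.

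Western diet lowered Stard4 by 2.73 ± 0.22 in knockout livers (6.62-fold, adjusted p = 1.73e-08) and by 1.48 ± 0.22 in wild-type livers (2.8-fold, adjusted p = 0.000333). The fall was larger in knockout livers by an interaction of -1.24 ± 0.31 (adjusted p = 0.00543), a call lost with normexp (-0.87, adjusted p = 0.279). Within scan passes the diet difference was between -3.54 and -2.16 in knockout and between -1.90 and -0.55 in wild-type livers. The 2 other Stard4 probes gave diet differences of -2.98 and -2.91 in knockout and -1.55 and -1.58 in wild-type livers.

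The genotype differences in Stard4 were smaller and less settled. With genotype it rose by 0.64 ± 0.22 on normal diet (adjusted p = 0.0456) and fell by 0.61 ± 0.22 on Western diet (adjusted p = 0.023). On normal diet the other probes differed by 0.13 and 0.11 and did not pass (adjusted p = 0.692 and 0.742). On Western diet they fell by 1.30 and 1.21 (adjusted p = 2.9e-05 and 7.83e-05), over 1.5 times the fall on the brightest probe. On the brightest probe the Western-diet fall was -0.52 with quantile normalization (adjusted p = 0.0526). It was -0.50 without knockout mouse 1 on that diet (adjusted p = 0.0671) and -0.46 without wild-type mouse 5 (adjusted p = 0.0776). The normal-diet call was lost under median scaling (0.60, adjusted p = 0.143), normexp (0.47, adjusted p = 0.59) and the mean of probes (0.30, adjusted p = 0.218). It was lost too with no filter (adjusted p = 0.0725), only the 2 groups (adjusted p = 0.0665) and the scan pass as a block (0.70, adjusted p = 0.0512). Leaving out any 1 of 11 mice also ended it.

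Stard5 encodes another START-domain carrier of cholesterol, known from Kupffer cells and macrophages of liver. In knockout mice 1 to 5 its level was 1.74, 0.53, 0.94, 1.69 and 1.07 on Western diet and 1.98, 2.26, 2.19, 2.06 and 2.39 on normal diet. Wild-type levels were 1.84, 1.63, 1.80, 2.18 and 2.15 on Western diet and 1.88, 2.13, 2.02, 2.35 and 2.12 on normal diet. The knockout mice on Western diet were the lowest group and the most spread, and 2 of them, mice 1 and 4, lay within the range of the wild-type mice on Western diet.

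Western diet lowered Stard5 in knockout livers by 0.98 ± 0.19 (1.98-fold, adjusted p = 0.000317), and the difference in wild-type livers was -0.18 ± 0.19 (adjusted p = 0.642). With normexp the knockout difference was -0.69 (adjusted p = 0.0728). The difference between the 2 was -0.80 ± 0.27 (adjusted p = 0.0337), a call that was lost with median scaling (-0.85, adjusted p = 0.096), normexp (-0.41, adjusted p = 0.717), no filter (adjusted p = 0.057) and the scan pass as a block (-0.73, adjusted p = 0.0549), and without any 1 of 10 mice. With genotype on Western diet Stard5 fell by 0.72 ± 0.19 (adjusted p = 0.00339). Its second probe showed larger differences, -1.69 for diet in knockout livers and -1.19 for genotype on Western diet, and there the difference between the diet effects was -1.35 (adjusted p = 0.00368). The Kupffer cell markers, which fell with genotype on Western diet, fell in 4 of 7 cases with genotype on normal diet, where Stard5 differed by 0.08 ± 0.19. Of the hepatocyte markers 7 of 8 fell with Western diet in knockout livers, where their sums were 537 to 631 on Western diet and 831 to 1090 on normal diet, and the part of either cell type in the fall of Stard5 was not tested.

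Scarb1 encodes the receptor SR-BI, which takes cholesteryl esters from high-density lipoprotein into hepatocytes. Its level ran from 3.74 to 3.92 in knockout mice on Western diet, 3.56 to 4.03 in knockout mice on normal diet, 3.93 to 4.62 in wild-type mice on Western diet and 3.63 to 4.39 in wild-type mice on normal diet. On Western diet the genotypes only just did not overlap, and Scarb1 fell by 0.43 ± 0.15 (1.35-fold, adjusted p = 0.0179). This fall was -0.52 with median scaling, larger but no longer past the threshold (adjusted p = 0.062). It was -0.19 with quantile normalization (adjusted p = 0.251) and -0.16 in the authors' deposited normalized values (adjusted p = 0.304). Without wild-type mouse 4 on Western diet it was -0.35 (adjusted p = 0.056). The other differences in Scarb1 were -0.24 ± 0.15 with genotype on normal diet, 0.03 ± 0.15 with diet in knockout livers and 0.22 ± 0.15 with diet in wild-type livers, and none of these passed (adjusted p = 0.28 or higher). The hepatocyte markers, 6 of 8 of which fell in the same comparison, moved with it, and their part was not tested.

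**Figure D4:**
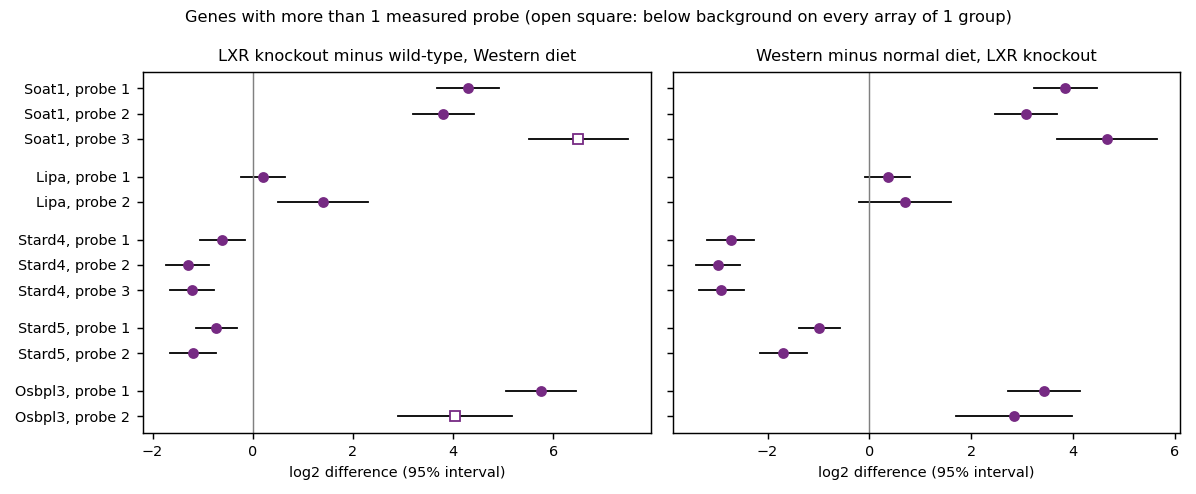
Log2 differences with 95% intervals for each measured probe of the 5 genes with more than 1, for genotype on Western diet (left) and diet in knockout livers (right). Probes are numbered from the brightest. Open squares mark probes below background on every array of 1 group. Probes of Soat1, Stard4, Stard5 and Osbpl3 lie on 1 side of 0, while of the 2 Lipa probes only the second has an interval clear of 0 for genotype.

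In the comparison of genotypes on normal diet, 4 of the 10 genes changed with genotype and all 4 rose (Soat1, Stard4, Ch25h and Osbpl3). Among all genes 19.7% changed, 11.3% rising and 8.39% falling. No member fell at an adjusted p under 0.05 in limma. Only Lipa was lower at an unadjusted p under 0.05 in the limma fit across all genes (adjusted p = 0.14, unadjusted p = 0.0433). The genotypes did not overlap for 2 genes, Soat1 and Osbpl3, and for 14.9% of all genes. The median difference was 0.28 over the 10 genes and -0.06 over all genes. Of the macrophage markers 4 of 10 rose here, and of the lipid-laden macrophage markers 4 of 8. Of the T and B cell markers 3 of 6 rose (Cd79b by 2.79, Cd8a by 1.21 and Ms4a1 by 1.20), as did 1 of 6 endothelial and 1 of 5 cholangiocyte markers, while 4 of 7 Kupffer cell markers and 1 of 8 hepatocyte markers fell. The part of these cells in the rise of the 4 genes was not tested. With normexp background correction none of the 10 passed in limma (Osbpl3 0.73, adjusted p = 0.413, and Soat1 0.60, adjusted p = 0.29). Of all genes only 2.83% passed with normexp, so the loss of calls was not particular to the 10.

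Western diet in wild-type livers changed 2 of the 10 genes, Soat2 upward and Stard4 downward. Among all genes 5.97% changed, 3.25% rising and 2.71% falling. Of the 10 only Stard4 had no overlap between the diets, against 8.16% of all genes. In knockout livers Western diet changed 6 genes, 4 upward (Soat1, Npc2, Ch25h and Osbpl3) and 2 downward (Stard4 and Stard5), and these 6 had no overlap between the diets, against 34.4% of all genes. There 50.4% of all genes changed, 22.6% rising and 27.8% falling. The diet effect differed between genotypes for 7 genes, being higher in knockout livers for 4 (Soat1, Npc2, Ch25h and Osbpl3) and lower for 3 (Soat2, Stard4 and Stard5), against 27.6% of all genes, 12.9% higher and 14.7% lower. The comparisons share groups, so that the knockout mice on Western diet enter 3 of the 5.

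Likeness to other genes was read from Pearson's r over the 20 arrays among 17006 genes with complete values, as a description. The points fall into 4 groups, so r mostly reflects group differences, and r after removal of the group means is given beside it. Closest to Soat1 were Lgals3, a galectin of macrophages (0.991, and 0.804 with group means removed), Uap1l1 (0.991 and 0.851) and Cd63, a late endosome tetraspanin (0.989 and 0.812). Closest to Npc2 were S100a11 (0.979 and 0.827) and Tmsb10 (0.978 and 0.856). Ch25h was closest to Ccrl2 (0.981 and 0.807), the growth factor gene Hbegf (0.979 and 0.824) and the chemokine gene Cx3cl1 (0.979 and 0.845), and Osbpl3 to Plekha2 (0.991 and 0.835), Vsir (0.99 and 0.761) and Ppp1r18 (0.988 and 0.855).

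Stard4 was closest to 3 genes of the later steps of cholesterol synthesis: Hsd17b7 (0.975), Erg28 (0.954) and Nsdhl (0.951). With group means removed these fell to 0.607, 0.294 and 0.282. Hsd17b7 fell by 3.83 ± 0.22 with Western diet in knockout livers and by 2.00 ± 0.22 in wild-type livers, and Erg28 by 2.27 ± 0.13 and 1.04 ± 0.13, the same order as Stard4. Soat2 was closest to Proser3 (0.924 and 0.798) and Hsd17b11, a lipid droplet enzyme gene (0.89 and 0.543), which rose with Western diet in wild-type livers by 0.79 ± 0.10 and fell with genotype on Western diet by 1.44 ± 0.10. Over all arrays the best matches were weaker for Npc1 (Tbc1d10a, 0.875 and 0.764), Scarb1 (Btbd6, 0.886 and 0.814) and Lipa (Srsf10, 0.739 and 0.851). For Lipa r was thus higher with group means removed. For Stard5 the best matches stood at 0.942 (Miga2 and Cmc1, 0.897 and 0.826 with group means removed).

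Among the 10 genes themselves, Soat1, Npc2, Ch25h and Osbpl3 had r between 0.918 and 0.97 with each other. With group means removed, Soat1 and Npc2 kept 0.724 and Soat1 and Osbpl3 0.667, but Soat1 and Ch25h had 0.166. Soat1 and Soat2 had -0.509 over all arrays and -0.057 with group means removed. Soat2 and Npc1 had -0.277 over all arrays and 0.77 with group means removed. All these values rest on the same 20 arrays and their shared scaling.

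Other genes of the pathways were listed from general knowledge, with earlier results of these data known. Over the 55 distinct genes tested, 12 rose and 29 fell with genotype on Western diet, where 25% of all genes rose and 32.7% fell (median -0.41, against -0.16 over all genes). On normal diet 7 rose and 9 fell, where 11.3% of all genes rose and 8.39% fell (median -0.06 in both). The counts of the lists below are to be read against the same shares. In cholesteryl ester synthesis and hydrolysis, 1 rose and 3 fell of 6 with genotype on Western diet. Nceh1, an ester hydrolase of macrophages, rose by 1.89 ± 0.24 (adjusted p = 2.96e-06). Lcat, the plasma enzyme made by hepatocytes, fell by 1.09 ± 0.13 (adjusted p = 1.14e-06), and the hepatocyte carboxylesterases Ces1d and Ces1g fell by 2.01 ± 0.17 and 0.92 ± 0.32. On normal diet Ces1g instead rose, by 1.70 ± 0.32 (adjusted p = 0.00091).

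Of 17 genes of cytosolic and contact-site sterol transfer, 4 rose and 7 fell with genotype on Western diet. Among the relatives of Osbpl3, Osbpl7 rose by 2.04 ± 0.24 (adjusted p = 1.12e-06), while Osbp fell by 0.77 ± 0.12, Osbpl9 fell by 0.62 ± 0.12, Osbpl2 fell by 0.41 ± 0.09 and Osbpl1a fell by 0.41 ± 0.14. Gramd1b, a sterol transporter at contacts of endoplasmic reticulum and plasma membrane, rose by 1.81 ± 0.29 (adjusted p = 3.05e-05). Scp2, the sterol carrier protein of peroxisomes and cytosol, fell by 1.30 ± 0.15 (adjusted p = 5.03e-07), and Star fell by 1.26 ± 0.28 (adjusted p = 0.000789). Osbpl5 rose with genotype on normal diet (1.11 ± 0.25) and with Western diet in wild-type livers (1.43 ± 0.25, adjusted p = 0.00172).

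Of 10 lysosomal and late endosomal genes, 2 rose and 3 fell with genotype on Western diet. Gprasp1, the largest change, fell by 0.81 ± 0.14 (adjusted p = 8.91e-05). The late endosome GTPase gene Rab7 rose by 0.34 ± 0.10, and Lamp2 fell by 0.51 ± 0.14 (adjusted p = 0.00395). Tmem97, the sigma-2 receptor gene whose protein binds NPC1, fell with Western diet by 1.47 ± 0.18 in knockout and 1.16 ± 0.18 in wild-type livers (adjusted p = 1.87e-06 and 0.000504), as Stard4 did.

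Of 5 oxysterol enzyme genes tested, 1 rose and 4 fell with genotype on Western diet. Cyp7b1, which clears 25-hydroxycholesterol by 7-alpha-hydroxylation, fell by 4.59 ± 0.23 (adjusted p = 3.22e-11), while Ch25h, which makes it, rose. Cyp27a1, the sterol 27-hydroxylase gene, fell by 1.75 ± 0.17 on Western diet (adjusted p = 1.06e-07) and by 0.77 ± 0.17 on normal diet (adjusted p = 0.00348). Hsd3b7 fell by 1.63 ± 0.14 on Western diet. With Western diet Cyp7b1 fell by 4.92 ± 0.23 in knockout livers and fell by 0.81 ± 0.23 in wild-type livers.

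Of 7 genes of lipoprotein cholesterol uptake, 3 rose and 3 fell with genotype on Western diet. The scavenger receptor genes Cd36 and Msr1 rose by 2.40 ± 0.37 and 2.37 ± 0.37 (adjusted p = 2.4e-05 and 2.16e-05). Lipc, the hepatic lipase gene, fell by 2.72 ± 0.23 (adjusted p = 1.9e-08). Of the 11 reference genes controlled by SREBP2 or LXR, 1 rose and 10 fell with genotype on Western diet. Sqle, a target of SREBP2, fell with Western diet by 5.86 ± 0.36 in knockout and 3.69 ± 0.36 in wild-type livers, the direction of Stard4. Abcg1, a cholesterol exporter of macrophages and an LXR target, rose by 2.43 ± 0.29 with genotype on Western diet.

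**Figure D5:**
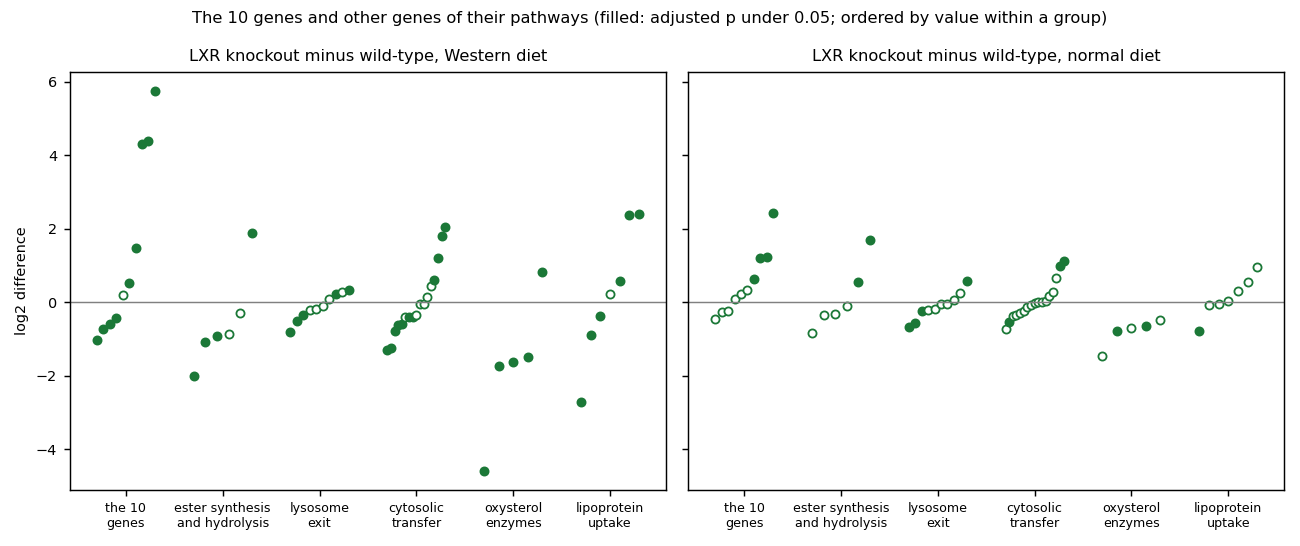
Log2 differences (knockout minus wild-type) of the 10 genes and of other genes in 5 pathway groups, on Western diet (left) and on normal diet (right), ordered by value within a group. Filled points have an adjusted p under 0.05. On Western diet the 3 highest points belong to Osbpl3, Ch25h and Soat1, and the lowest is Cyp7b1.

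On the array's build, mm8, the main probes lie at chr1:158266523-158266582 for Soat1, chr12:85646745-85646804 for Npc2, chr19:34539925-34539984 for Ch25h, chr6:50226487-50226546 for Osbpl3 and chr5:125566267-125566326 for Scarb1, all on the minus strand. The Stard5 probe lies at chr7:83513813-83513872 on the plus strand, and the Soat2 probe at chr15:101989129-101990046 on the plus strand, a span longer than a probe, as of one that crosses an intron. Which exon each probe reads was not given in the sources used here.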

How the data were processed

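Each liver RNA was hybridised to its own single-colour array. The file headers name Agilent Feature Extraction 9.5.3.1 as the authors' software, and its deposited processed signal is a background-subtracted and detrended intensity in which dim spots carry a surrogate. Feature Extraction 9.5 and limma (no version) are listed in the submitters' processing notes. The authors deposited log2 values of 24493 probes in the series matrix, whose normalization is not given in the sources used here.

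Control spots and 105 to 270 outlier spots per array were left out, and spots of a probe were averaged. The array's 75th percentile of log2 signal, over non-control spots, was then subtracted. Names came from RefSeq accessions, symbols or synonyms. The brightest probe over the 20 arrays stood for its gene, and it had to be well above background in 4 or more mice of any 1 group. A limma 3.58.1 fit of 4 group means (lmFit and eBayes, two-sided, 16 residual and 2.23 prior degrees of freedom) ran in R 4.3.3 with data.table, version 1.17.8. Benjamini-Hochberg adjustment covered all genes of each of the 5 comparisons, at a threshold of 0.05. Values of a gene's other probes come from a fit over all probes that passed the filter. The scripts were tested on simulated data. Replicates were different mice, so p-values measure the spread between mice, and the number of arrays limits the precision.

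The 10 genes, the other lists and the rules were chosen with earlier results of these data known. The genes eligible to be named were the 10 in all comparisons, up to 4 per pathway list with the largest differences in a comparison, up to 3 most like each of the 10, the deleted genes and the cell type markers, and a selection of them is given. Osbp, Osbpl9, Osbpl2 and Osbpl1a were named outside this rule, after their values were seen. Same-numbered mice deviated together (r over 0.1) in 0, 2, 4 and 3 of 5 pairs for genotype on normal and Western diet and diet in wild-type and knockout livers, and the labels do not say that a number links mice, so the fit without the block was kept. In the diet comparisons, though, same-numbered knockout mice shared a scan pass for all 5 numbers and wild-type mice for numbers 2 to 5, so the replicate block there also takes up the scan pass. Promoter windows are those of RefSeq on GRCm38.p6. Plots used matplotlib 3.10.9 and numpy 2.4.6 under Python 3.11.15. Alternatives changed the scaling, the background correction, the filter, the probe for a gene, the samples fitted, or used the series matrix, or took the scan pass or replicate number as a block.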

Additional observations from a re-analysis of the deposited data

Results flagged for a closer look

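In 7 of the 10 genes the diet effect differed between the genotypes by the limma interaction test (knockout minus wild-type effect of Western diet, log2). The values were 3.06 for Soat1, 1.23 for Npc2, 3.19 for Ch25h and 3.33 for Osbpl3, all higher in knockout livers. They were -0.78 for Soat2, -1.24 for Stard4 and -0.80 for Stard5, all lower in knockout livers. The interaction passed for 27.6% of all genes. With normexp, which called 5.62% of all genes there, only 3 of the 7 remained past the threshold. The calls of Soat2 and Stard5 were also lost with median scaling, which called 17.5% of all genes.

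Single mice stood far from their group in 2 of 40 tests of 5 mice, each with a gap above 0.71 of the group's range, a rule by which chance alone marks about 5% of groups. Ch25h was at -2.28 in mouse 1 of the knockout group on normal diet, where the next mouse was at -3.80. That mouse also had the highest summed macrophage marker level of its group (log2 sum 7.01), and its part in the value was not tested. Osbpl3 was at -3.72 in mouse 4 of the wild-type group on normal diet, where the next mouse was at -4.39 and only 3 of 5 arrays were well above background.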

How the results depend on the processing

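Under every alternative that gave a value, Soat1, Soat2, Npc2, Ch25h and Osbpl3 kept direction and call for genotype on Western diet, as did Soat1, Npc2, Stard4 and Osbpl3 for diet in knockout livers and Stard4 for diet in wild-type livers (Ch25h has no value in the series matrix, and neither Ch25h nor Osbpl3 has one where genes had to be above background on all 20 arrays). The number of the 10 genes changed with genotype on normal diet was 4. It was 2 with median scaling, with only genes above background on all 20 arrays (where fewer genes were tested), with the scan pass as a fixed block and with only the 2 groups in the fit, 0 with normexp, and 2 to 4 without single mice (2 without knockout mouse 1 or wild-type mouse 3 or 5 on normal diet). For diet in wild-type livers it was 2, against 1 with median scaling, normexp, no filter, the scan pass block, the replicate block or only the 2 groups, and 1 to 2 without single mice. For the interaction it was 7, and 3 with normexp. Of all genes 19.7% changed with genotype on normal diet, 12.8% with median scaling and 2.83% with normexp. The share was 19.3% for genes above background on all 20 arrays, 20.4% with the scan pass block and 17.1% with only the 2 groups. For diet in wild-type livers 5.97% became 2.99% with median scaling, 0.815% with normexp and 2.8% with no filter. The blocks gave 6.85% (scan pass) and 5.46% (replicate), and only the 2 groups 5.43%. For the interaction 27.6% became 5.62%. The cause of these shifts was not tested, nor was the part of the offset of 50 intensity units that normexp added to the signals. That offset is to be read against array 75th percentiles of 170.3 to 435.1 units. No other count of changed genes moved by over 1.5 times. With the replicate block the counts were 3 and 9 for genotype on normal and Western diet, 1 and 6 for diet in wild-type and knockout livers and 8 for the interaction. Deviations of same-numbered mice correlated between -0.378 and 0.487, and the number follows the scan pass in most diet pairs. Beside the calls given in the results, the replicate block ended that of Stard4 for genotype on normal diet (adjusted p = 0.0641).

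Signs turned only for differences that passed in no setting: Npc1 for genotype on normal diet with the mean of probes (-0.01033), Stard5 for genotype on normal diet with normexp (-0.03338) and Scarb1 for the interaction with normexp (0.16). Osbpl3 for diet in wild-type livers was -0.01294 with normexp, -0.0184 in the series matrix, -0.31 with the mean of probes and -0.07613 to 0.3761 without single mice. Npc1 for diet in knockout livers was 0.05796 with median scaling, 0.07968 with quantile normalization, 0.2077 with normexp, 0.0598 in the series matrix and -0.07962 to 0.1037 without single mice. Without single mice Npc2 for diet in wild-type livers was -0.03198 to 0.191, Ch25h -0.009217 to 0.2794, and Scarb1 for diet in knockout livers -0.03517 to 0.08106.

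Over all genes, normexp called 496, 4099, 143, 3489 and 985 genes for genotype on normal and Western diet, diet in wild-type and knockout livers and the interaction, where the processed signal gave 3460, 10128, 1047, 8845 and 4839. Median scaling gave 2254 for genotype on normal diet, 524 for diet in wild-type livers and 3065 for the interaction. The share of called genes that were higher moved by over 10 points with normexp for diet in wild-type livers (43.4%, against 54.5%), diet in knockout livers (55%, against 44.9%) and the interaction (67.9%, against 46.7%), and with median scaling for diet in wild-type livers (66.6%). Signal over background limits Ch25h and Osbpl3 in wild-type livers.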
